A study of Homo sapiens with 12 samples.

Results

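The AP-1 and immediate early genes described here are 9 genes chosen by name, FOS, FOSB, FOSL1, FOSL2, JUN, JUNB, JUND, EGR1 and ATF3, among the 60617 gene identifiers of an RNA-seq data set of a colon cancer line. All 9 passed the filter on low counts, which left 15692 genes for testing. HCT 116p53-/- cells, a colorectal cancer line that lacks functional p53, were compared with their subline uL3ΔHCT 116p53-/-. Per the study's methods the subline is stably silenced for the ribosomal protein uL3, and the GEO labels give its genotype as RPL3 KO (uL3 is the product of RPL3). Each line received vehicle or 5 nM actinomycin D (Act D) for 24 h, and each of the 4 groups held 3 libraries that the labels name biological replicates, so that the p-values measure the spread between these libraries. The p53-/- genotype was shared by all 12 libraries, and no source used here says whether the subline is 1 clone. Act D at low dose inhibits RNA polymerase I, and the study set out to compare the response to this nucleolar stress between the cells labelled in these 2 ways.

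AP-1 is a family of dimeric transcription factors with basic leucine zippers. JUN, JUNB and JUND can pair with each other or with a FOS family protein (FOS, FOSB, FOSL1, also called FRA1, or FOSL2, also called FRA2), whereas FOS proteins need a JUN partner to bind DNA. The dimers bind the TPA response element, searched for here by the looser pattern TGANTCA (N is any base). FOS, FOSB, JUN, JUNB and EGR1 are classical immediate early genes, which are transcribed within minutes of a growth factor or stress signal without new protein synthesis and whose mRNAs decay fast. FOSL1 and FOSL2 usually follow later and stay high under sustained ERK signalling, JUND is more constant, and EGR1 is a zinc finger factor induced through serum response elements. ATF3 is a stress-induced bZIP protein that also pairs with JUN proteins and binds the cAMP response element. That element was searched for by the looser pattern TGACNTCA, so that a match need not be the exact element.

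The libraries held between 10087925 and 21138886 expected counts. After TMM scaling the targeted gene was not lower in the libraries labelled uL3Δ: RPL3 was at 1138 ± 15.3 CPM (counts relative to library size, scaled by TMM; SD, n = 3 in every group) in vehicle-treated HCT 116p53-/- libraries and at 1242 ± 82.5 CPM in those labelled uL3Δ (log2 fold change 0.13, SE 0.08, adjusted p = 0.155, edgeR quasi-likelihood fit, adjusted by Benjamini-Hochberg over all genes tested, as is every adjusted p given here). With Act D it was at 1127 ± 13.7 and 1223 ± 79.8 CPM (log2 fold change 0.12, adjusted p = 0.187). On the deposited TPM, which carries no scaling for composition, RPL3 was lower in the uL3Δ-labelled cells. It was at 775.6 and 589.6 TPM with vehicle and at 738.2 and 552.6 TPM with Act D. The median log2 ratio of all genes was also below 0 on TPM, at -0.48 and -0.49. The libraries are therefore called by their label throughout, and nothing below rests on a measured loss of RPL3 RNA. The labelled tissue was also checked. Of 12 colon epithelial markers, 8 or 9 reached 1 CPM in the HCT 116p53-/- groups and 5 in the groups labelled uL3Δ, and of the 9 tested 8 were lower and 1 higher with either treatment. E-cadherin (CDH1) was at 66.8 and 0.445 CPM and the intestinal factor CDX2 at 14.8 and 0.177 CPM with vehicle, while the keratin genes KRT8 (1117 and 777 CPM) and KRT18 (605 and 840.3 CPM) and the epithelial factor ELF3 (39.7 and 30.4 CPM) were present in both, and CDX1 was listed without counts in 3 of the 4 groups. The summed level of these markers with vehicle was between 2106 and 2230 CPM and between 1596 and 1788 CPM. The summed level of 12 mesenchymal markers was between 61.2 and 106 CPM in HCT 116p53-/- libraries. In those labelled uL3Δ it was between 2683 and 3037 CPM, mostly vimentin (VIM, 22.0 and 2237 CPM with vehicle). Of the 9 mesenchymal markers tested, 7 were higher and 1 lower in the uL3Δ-labelled cells with either treatment. With vehicle, FN1 (22.61 and 248.7 CPM) and SNAI2 (0.2789 and 32.07 CPM) were also higher, whereas the collagen gene COL1A1 went the other way (7.50 and 4.14 CPM). These differences run parallel to every line difference below, the effect of uL3 and other differences between the lines cannot be told apart, and in bulk RNA fewer cells of a type and less RNA per cell cannot be told apart either. Of 8 blood and endothelial markers, between 1 and 3 reached 1 CPM in a group.

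The 9 genes lie on 6 chromosomes (hg38, GENCODE v44). FOS is at chr14:75278826-75282230 on the plus strand, FOSB at chr19:45467995-45475179 (plus), FOSL1 at chr11:65892049-65900573 (minus) and FOSL2 at chr2:28392448-28417317 (plus). JUN is at chr1:58776845-58784048 (minus), JUNB at chr19:12791486-12793315 (plus) and JUND at chr19:18279694-18281622 (minus). EGR1 is at chr5:138465479-138469303 (plus) and ATF3 at chr1:212565334-212620777 (plus). Their median span was 7185 bp against 29558 bp over the tested genes, though FOSL2 spans 24870 bp and ATF3 55444 bp. The 3 members of the JUN family consist of 1 exon each, against 7.18% of the tested genes.

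RefSeq promoter windows (GRCh38.p14, 250 bases before to 50 after the start), 9 in all, were found for 8 of the 9 members. There was none for FOSL1. Both strands were searched for TGANTCA, for TGACNTCA and for the CArG box, the core of the serum response element to which SRF binds. These motifs do not overlap in the windows of the members and were present in 7.71%, 7.72% and 1.29% of 35116 windows of this length, respectively. The upstream parts of 3 windows are shown, with motifs in capitals: that of JUN, which differed most between the lines, that of ATF3, which changed most with Act D in HCT 116p53-/- cells and holds the same 8 letters as JUN, and that of EGR1, with 2 CArG boxes. Positions count from the RefSeq start. All 9 windows were searched, and an upstream part outside the gene's annotated span was kept for 7 of them. The ATF3 stretch lies directly before the gene's annotated span of 55444 bp, so that a start within that span could lie far from it. Which start was used in these libraries was not tested.
JUN, chr1:58784049-58784297, minus strand, TGACATCA at -67: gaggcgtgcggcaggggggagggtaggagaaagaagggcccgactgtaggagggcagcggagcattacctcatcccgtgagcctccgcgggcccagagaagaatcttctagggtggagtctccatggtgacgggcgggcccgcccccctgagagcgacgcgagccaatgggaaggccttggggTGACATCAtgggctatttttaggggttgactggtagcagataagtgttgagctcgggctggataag
ATF3, chr1:212565157-212565333, plus strand, TGACATCA at -123: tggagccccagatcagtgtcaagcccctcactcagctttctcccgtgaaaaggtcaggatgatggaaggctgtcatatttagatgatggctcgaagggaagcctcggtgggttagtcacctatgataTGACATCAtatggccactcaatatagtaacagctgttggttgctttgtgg
EGR1, chr5:138465229-138465478, plus strand, CArG boxes at -105 and -83: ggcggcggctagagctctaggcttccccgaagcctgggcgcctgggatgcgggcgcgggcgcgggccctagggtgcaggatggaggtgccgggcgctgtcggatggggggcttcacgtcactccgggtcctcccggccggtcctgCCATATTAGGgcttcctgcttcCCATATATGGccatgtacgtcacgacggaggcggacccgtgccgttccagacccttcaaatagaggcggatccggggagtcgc
JUND held TGACGTCA at -200 and FOSL2 held TGACTCA at 5, after its start. No match lay in the windows of FOS, FOSB or JUNB, which says only that these letters are not in those windows.

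The first comparison asked how the lines differed without drug. All 9 members were higher in the libraries labelled uL3Δ, from 2.06-fold for FOSL1 to 10.5-fold for JUN, and no member's groups overlapped. Higher calls made up 35.1% of the tested genes and lower calls 36.2%, and 72.5% of the tested genes had groups that did not overlap, so that a difference between the lines was common. The median log2 fold change of the members was 1.85, and that of all tested genes was -0.02.

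Within the JUN family, JUN stood at 10.7, 13.6 and 13.9 CPM in the 3 vehicle-treated HCT 116p53-/- libraries and at 142, 132 and 128 CPM in those labelled uL3Δ. The lowest library of the uL3Δ-labelled cells was above the highest of HCT 116p53-/- cells by a wide margin, and the log2 fold change was 3.40 (SE 0.14, 95% interval 3.10 to 3.69, adjusted p = 3.21e-13). JUNB, which often counters JUN at shared sites, was at 35.3, 43.3 and 39.6 CPM against 154, 140.0 and 133 CPM (log2 fold change 1.85, SE 0.13, adjusted p = 7.9e-10). JUND was at 19.0, 18.1 and 21.2 CPM against 49.7, 43.7 and 47.7 CPM (1.27, SE 0.21, adjusted p = 2.58e-05). The 3 partners of the FOS proteins were thus all higher in the uL3Δ-labelled cells, by amounts whose intervals did not overlap between JUN and the other two.

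In the FOS family, FOSB differed most between the lines, from 5.51, 4.96 and 6.64 CPM to 31.2, 40.7 and 43.96 CPM (log2 fold change 2.76, SE 0.16, adjusted p = 4.2e-11). FOS was at 11.1, 9.30 and 11.5 CPM in HCT 116p53-/- libraries and at 40.5, 66.0 and 68.3 CPM in those labelled uL3Δ (2.46, SE 0.19, adjusted p = 1.64e-09). Both genes were lowest in replicate 1 of the uL3Δ-labelled cells, which still lay above every HCT 116p53-/- library. FOSL2 was at 39.4, 41.5 and 42.0 CPM against 149, 143 and 153 CPM (1.85, SE 0.08, adjusted p = 5.43e-13). FOSL1, the most abundant member, was at 97.4, 100.4 and 96.7 CPM against 217, 181 and 208 CPM (1.04, SE 0.08, adjusted p = 2.68e-09). These 2 genes varied little between replicates, with coefficients of variation of 2.0% to 9.33% in the vehicle groups.

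The stress-induced ATF3 was at 11.3, 10.95 and 10.7 CPM in vehicle-treated HCT 116p53-/- libraries and at 35.3, 59.6 and 60.8 CPM in those labelled uL3Δ (log2 fold change 2.25, SE 0.16, adjusted p = 5.97e-10). Like FOS, it was lowest in replicate 1 of the uL3Δ-labelled cells. EGR1 was at 14.8, 17.8 and 19.6 CPM against 28.4, 39.1 and 52.8 CPM (1.21, SE 0.19, adjusted p = 1.42e-05), with the widest spread among the vehicle groups (coefficient of variation 30.6%).

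**Figure D1:**
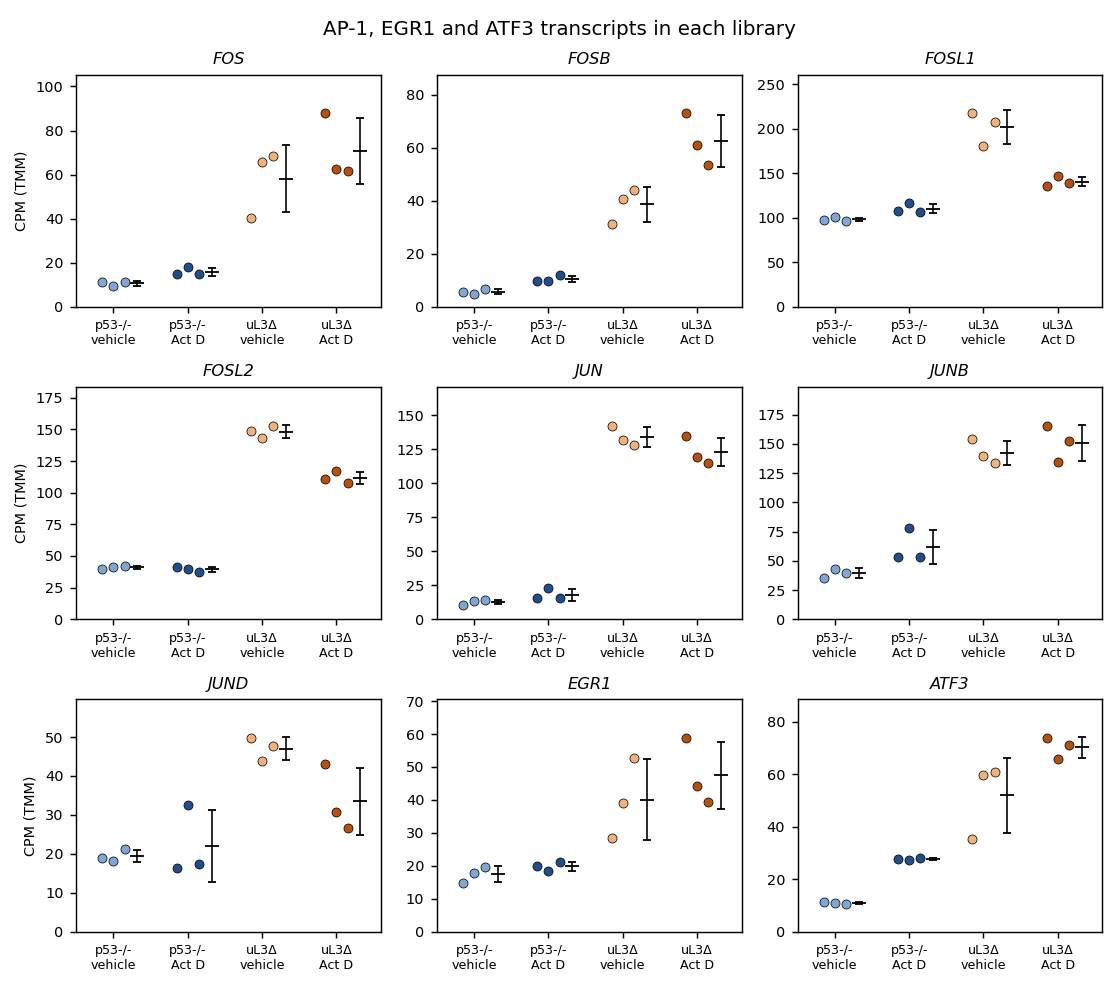
CPM (TMM-scaled, linear axes from 0) of the 9 members in each of the 12 libraries, by group; points are libraries in the order of their replicate number, the dash and bar beside them the mean ± SD (n = 3). All 6 libraries labelled uL3Δ lie above all vehicle-treated HCT 116p53-/- libraries for each gene, and JUND in Act D-treated HCT 116p53-/- cells holds 1 library, at 32.7 CPM, apart from the other two.

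With Act D in both lines, all 9 members were again higher in the libraries labelled uL3Δ, and the groups of 8 did not overlap. Here 35.1% of the tested genes were called higher and 35.3% lower, and 74.1% had groups that did not overlap. The member median was 1.35 on the log2 scale. This comparison shares no library with the one in vehicle, but both share the line labels and what goes with them. JUN differed most again, by a log2 fold change of 2.77 (SE 0.13, adjusted p = 4.42e-12), followed by FOSB at 2.57 (SE 0.15, adjusted p = 5.96e-11), FOS at 2.17 (SE 0.18, adjusted p = 7.33e-09) and FOSL2 at 1.49 (SE 0.08, adjusted p = 1.44e-11). ATF3, JUNB and EGR1 differed by 1.35, 1.29 and 1.27. The smallest differences were those of JUND at 0.61 (SE 0.21, adjusted p = 0.0154) and FOSL1 at 0.35 (SE 0.08, adjusted p = 0.00102), and neither kept its call under scaling by library size alone (0.37 and 0.10, adjusted p for FOSL1 = 0.347), which moved the median of all genes to -0.26. JUND, whose Act D groups overlapped, also lost its call without replicate 1 (0.42) or replicate 3 (0.43) of Act D-treated HCT 116p53-/- cells or without replicate 1 of the Act D-treated uL3Δ-labelled cells (0.37).

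The third comparison asked what Act D changed in HCT 116p53-/- cells. ATF3, FOSB, JUNB and JUN rose, the other 5 members did not pass the test, and 6 members had groups that did not overlap. The vehicle libraries are those of the first comparison. Genes called higher made up 7.59% and genes called lower 11.1% of those tested, and 38.2% had groups that did not overlap. The member median was 0.50 and that of all genes 0.02 on the log2 scale. ATF3 changed most, from 11.3, 10.95 and 10.7 CPM to 27.5, 27.2 and 28.2 CPM, a 2.51-fold rise (95% interval 1.98 to 3.18, adjusted p = 1.78e-05). The 6 libraries fell into 2 tight groups, with a coefficient of variation of 3.0% with vehicle and 1.77% with Act D. FOSB rose to 9.90, 9.81 and 11.98 CPM (1.84-fold, 95% interval 1.43 to 2.37, adjusted p = 0.00165).

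JUNB rose to 53.5, 78.2 and 53.3 CPM (1.57-fold, 95% interval 1.29 to 1.90, adjusted p = 0.0023), and JUN to 15.5, 22.8 and 15.6 CPM (1.41-fold, 95% interval 1.14 to 1.74, adjusted p = 0.0222). Replicate 2 of the Act D group was the highest library for both, as it was for FOS (17.9 CPM), FOSL1 (116 CPM) and JUND (32.7 CPM). Without that library the log2 fold change of JUN was 0.29 instead of 0.50 and was not called, and that of JUND was -0.21 instead of 0.18. JUN also lost its call without replicate 1 of the vehicle group (0.38) and under scaling by library size (0.40).

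FOS missed the threshold in HCT 116p53-/- cells, with 14.8, 17.9 and 14.8 CPM after Act D against 9.30 to 11.5 CPM before and no overlap (log2 fold change 0.57, SE 0.20, 95% interval 0.16 to 0.99, adjusted p = 0.0508). It passed under 5 of the 8 alternatives that left out no library and in 5 of the 12 fits that left 1 out, those without replicate 1 or 3 of the vehicle-treated uL3Δ-labelled cells or without any 1 of their Act D replicates, at 0.57 or 0.58 in each. FOSL1 was between 106 and 116 CPM after Act D and between 96.7 and 100.4 CPM before (0.17, adjusted p = 0.173). FOSL2, EGR1 and JUND gave log2 fold changes of -0.05 (95% interval -0.22 to 0.12), 0.18 (-0.22 to 0.59) and 0.18 (-0.26 to 0.63), with groups that overlapped. The intervals of EGR1 and JUND leave room for changes as large as that of JUN.

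In the cells labelled uL3Δ, Act D raised FOSB and lowered FOSL1 and FOSL2. The shares of tested genes were 3.51% called higher, 8.4% called lower and 27.6% without overlap between the groups, and 5 members had no overlap. The member median was 0.08 against 0.03 over all genes. FOSB went from 31.2, 40.7 and 43.96 CPM to 72.9, 61.1 and 53.6 CPM (1.62-fold, 95% interval 1.33 to 1.98, adjusted p = 0.00238). FOSL1 went from 217, 181 and 208 CPM to 136, 147 and 139 CPM (0.696-fold, 95% interval 0.617 to 0.784, adjusted p = 0.000339). The 3 Act D libraries of FOSL1 all lay below the lowest vehicle library and still above every HCT 116p53-/- library.

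FOSL2 went from 149, 143 and 153 CPM to 111, 117 and 107 CPM in the same cells (0.753-fold, 95% interval 0.674 to 0.841, adjusted p = 0.00147). ATF3 was at 73.8, 65.7 and 71.2 CPM after Act D, all above the vehicle libraries, but did not pass the test (log2 fold change 0.43, SE 0.14, 95% interval 0.13 to 0.73, adjusted p = 0.0591). It was called without replicate 2 (0.54) or replicate 3 (0.55) of the vehicle group. JUND was at 43.1, 30.7 and 26.6 CPM, just below the vehicle range (log2 fold change -0.48, SE 0.20, adjusted p = 0.146), and was called without replicate 2 of Act D-treated HCT 116p53-/- cells (-0.48). That library is outside the comparison and enters it through the shared estimate of spread, the scaling and the filter. FOS, EGR1, JUNB and JUN had overlapping groups and log2 fold changes of 0.28, 0.25, 0.08 and -0.12. Replicate 1 of the Act D group held the highest value of FOS (87.9 CPM), FOSB, JUN, JUNB (166 CPM), JUND, EGR1 (58.8 CPM) and ATF3, whereas replicate 1 of the vehicle group held the lowest FOS, FOSB, EGR1 and ATF3.

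**Figure D2:**
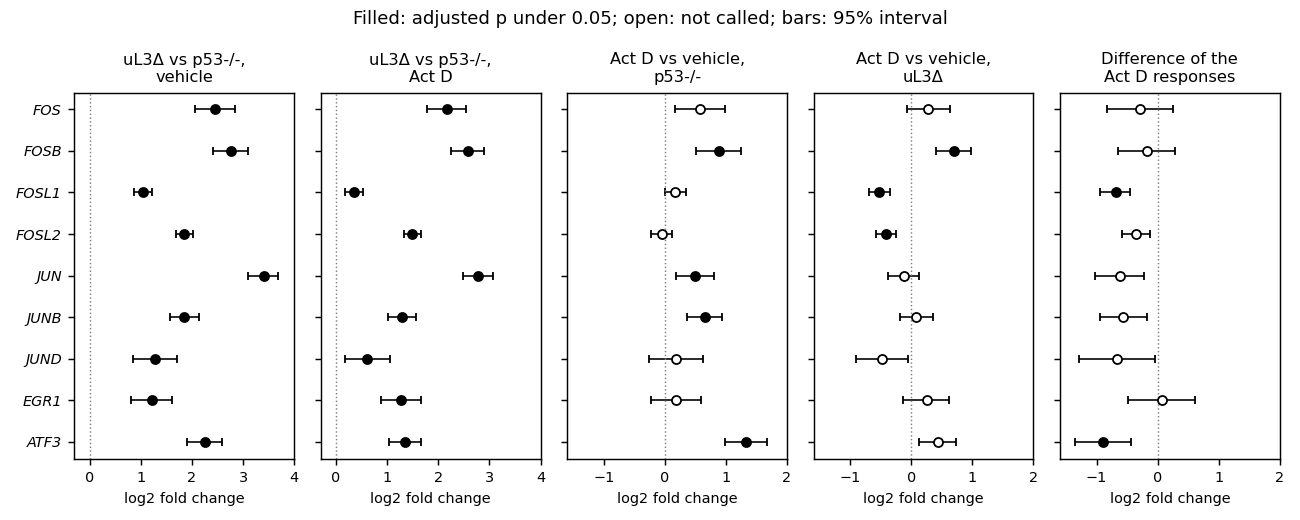
Log2 fold changes of the 9 members in the 4 comparisons between groups and for the difference of the Act D responses (uL3Δ-labelled minus HCT 116p53-/-), with 95% intervals from the fit over all 12 libraries; filled points have an adjusted p under 0.05. All 9 points are filled in both line comparisons, 4 in HCT 116p53-/- cells with Act D, 3 in the uL3Δ-labelled cells with Act D and 2 for the difference of the responses. The line comparisons and the other panels have different axis ranges.

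The responses to Act D were then compared directly between the lines by the interaction term. It was called for FOSL1 and ATF3, both with a lower log2 fold change in the uL3Δ-labelled cells, where 3.3% of the tested genes had a higher and 3.23% a lower one by this test. For FOSL1 the response differed by -0.69 on the log2 scale (SE 0.12, 95% interval -0.94 to -0.45, adjusted p = 0.00185), the log2 fold change being 0.17 in HCT 116p53-/- cells and -0.52 in the uL3Δ-labelled cells. For ATF3 it differed by -0.90 (SE 0.22, 95% interval -1.35 to -0.44, adjusted p = 0.0181), from 1.33 to 0.43. Both calls held under every alternative run. JUN (-0.62, adjusted p = 0.0563), FOSL2 (-0.36, adjusted p = 0.0581), JUNB (-0.56, adjusted p = 0.0776) and JUND (-0.66, adjusted p = 0.203) were not called, although their 95% intervals lay below 0. DESeq2 called FOSL1, ATF3, JUN, JUNB and FOSL2. Without replicate 3 of Act D-treated HCT 116p53-/- cells the count of calls was 4, with JUN at -0.74 and JUNB at -0.69. JUN was called as well without replicate 1 of that group (-0.73), and FOSL2 without replicate 2 of the Act D-treated uL3Δ-labelled cells (-0.43). FOSB, which rose in both lines, gave a difference of -0.18 (95% interval -0.65 to 0.28), FOS gave -0.29 (-0.83 to 0.25) and EGR1 0.07 (-0.49 to 0.62).

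The level of genes typical of the uL3Δ-labelled libraries moved with Act D in HCT 116p53-/- cells. For the 13 genes of at least 100 CPM in every library labelled uL3Δ and under 2% of their mean Act D level there in every HCT 116p53-/- library, the median in HCT 116p53-/- libraries was 0.351% to 0.433% of that level with vehicle and 0.934% to 1.03% with Act D. Whether this is RNA carried over or expression by the cells themselves was not tested. After subtraction of this share of each gene's level in the Act D-treated uL3Δ-labelled libraries from the counts (the uL3Δ share), the number of members called was 9, 9, 4, 3 and 2 in the order of the comparisons above, as without it. Subtraction lowers only the HCT 116p53-/- counts. For genes higher in the uL3Δ-labelled cells it therefore enlarges the line difference by construction, and the calls kept there are no test of it.

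Levels were compared between members per transcript length, on the deposited TPM. FOSL1 was the most abundant in every group, at 52.9 ± 2.50 TPM in vehicle-treated HCT 116p53-/- cells (SD, n = 3). It was followed there by JUNB at 17.6 ± 0.700, JUND at 10.4 ± 1.36 and ATF3 at 6.12 ± 0.230 TPM. FOSL2, FOS and EGR1 came next between 4.37 and 4.74 TPM, with libraries that overlapped, and JUN (2.81 ± 0.281) and FOSB (1.64 ± 0.247) were lowest. In the vehicle-treated uL3Δ-labelled cells the order was FOSL1 at 79.2 ± 17.4, JUNB at 45.4 ± 8.85, JUN at 21.1 ± 3.89 and ATF3 at 19.4 ± 4.90 TPM, so that JUN ranked above JUND there and below it in HCT 116p53-/- cells. From JUN through ATF3, FOS and JUND to FOSL2, each gene overlapped the next in that group. After Act D, FOSL1 (51.8 ± 3.95 TPM) and JUNB (45.3 ± 6.23 TPM) overlapped in the uL3Δ-labelled cells, and in HCT 116p53-/- cells ATF3 moved above JUND, though their libraries overlapped.

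The composition of the FOS family differed between the lines. FOSL1 made up 82.7% ± 0.520 of the family's summed TPM in vehicle-treated HCT 116p53-/- cells, 81.0% ± 0.643 with Act D, 67.8% ± 4.50 in the vehicle-treated uL3Δ-labelled cells and 57.1% ± 4.80 in the Act D-treated uL3Δ-labelled cells. The share of FOS was 7.33%, 9.21%, 15.4% and 22.7% in the same order, and that of FOSB 2.57%, 3.48%, 5.93% and 10.1%. Neither gene's share overlapped between successive groups of this order. In the JUN family JUNB was the largest part in every group, between 55.9% and 62.8% on average, while JUN made up 9.11% ± 0.516 and 9.02% ± 0.466 in HCT 116p53-/- cells without and with Act D and 26.0% ± 0.200 and 24.3% ± 1.17 in the uL3Δ-labelled cells. The share of JUND was 33.7%, 28.2%, 18.1% and 15.1%. These shares are descriptions, with no test. In the 1 library deposited per transcript, a JUND transcript of 500 bases held 43.4% of that gene's TPM but 34.4 of its 263 expected counts. A FOSB transcript of 580 bases held 35.5% of TPM on 4.9 of 72 counts, and an ATF3 transcript of 581 bases held 36.4% on 19.2 of 159. The TPM levels and shares of these genes therefore depend on how reads were assigned to short transcripts.

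TPM carries no scaling for composition. On it, the median of all genes lay at -0.48 (vehicle) and -0.49 (Act D) on the log2 scale between uL3Δ-labelled and HCT 116p53-/- cells, against -0.02 after TMM. Relative to 0, the line difference with Act D turned to -0.15 for FOSL1 and -0.08 for JUND, both above that median, and the other 7 members were higher on TPM as well, from 0.75 for EGR1 to 2.25 for JUN. In vehicle all 9 were higher on TPM, from 0.50 for JUND to 2.91 for JUN.

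**Figure D3:**
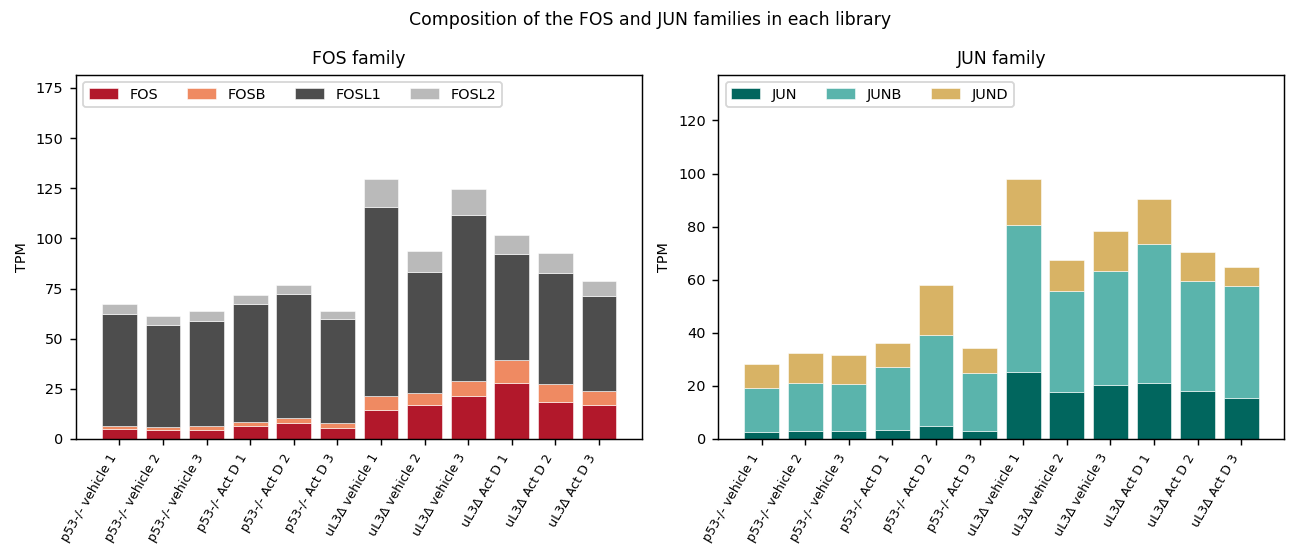
Deposited TPM of the FOS family (left) and the JUN family (right), stacked by gene, in each of the 12 libraries, on linear axes from 0. FOSL1 fills most of each FOS family bar, between 51.6% and 83.0%, and the JUN segment is larger in all 6 libraries labelled uL3Δ than in any HCT 116p53-/- library.

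The AP-1 partners and related bZIP factors, 20 genes of which 18 were tested, moved in both directions between the lines, 10 higher and 5 lower with vehicle (median log2 fold change 0.35), where 35.1% and 36.2% of all tested genes were called higher and lower. BACH1, a repressor that pairs with small MAF proteins, was higher in the uL3Δ-labelled cells (172 against 37.3 CPM, log2 fold change 2.21, adjusted p = 1.27e-12), as were the small MAF protein MAFF (66.6 against 12.8 CPM, 2.39, adjusted p = 1.2e-11) and ATF4, the effector of the integrated stress response (523 against 242 CPM, 1.11, adjusted p = 1.91e-09). ATF5 (-1.55) and NFE2L2 (-0.47), the NRF2 gene, were lower, as was BATF3 (-1.01), whose call was lost without replicate 3 of the vehicle-treated uL3Δ-labelled cells (-0.78, adjusted p = 0.0696). With Act D, 9 were higher and 6 lower, beside 35.1% and 35.3% of all tested genes. Those higher were led by BACH1 (1.84), MAFF (1.73) and CREB5 (4.06, from 0.558 to 9.45 CPM), and among those lower were ATF5 (-1.93) and NFE2L2 (-0.81).

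In response to Act D, 3 of these 18 factors rose and 1 fell in HCT 116p53-/- cells, beside 7.59% and 11.1% of all tested genes. Those that rose were MAFF (12.8 to 22.7 CPM, log2 fold change 0.84, adjusted p = 0.000214), ATF5 (25.4 to 40.2 CPM, 0.67, adjusted p = 0.0005) and CEBPB (8.17 to 12.9 CPM, 0.66, adjusted p = 0.0488), and the one that fell was ATF4 (-0.26, adjusted p = 0.0401). The calls of CEBPB and ATF4 were lost in 9 and 7 of the 12 fits that left out a library, CEBPB falling to 0.23 (adjusted p = 0.42) without replicate 2 of the Act D group. The count of calls fell from 4 to 2 without replicate 1 or 2 of the vehicle group, replicate 2 of the Act D group or replicate 2 or 3 of the Act D-treated uL3Δ-labelled cells. In the uL3Δ-labelled cells 4 of the 18 fell, beside 8.4% of all tested genes. These were MAFK (-0.67, adjusted p = 0.000371), MAFG (-0.47, adjusted p = 0.00292), ATF4 (-0.40, adjusted p = 0.00423) and CEBPB. The responses of CEBPB (-1.35, adjusted p = 0.013), MAFG (-0.54, adjusted p = 0.0191) and MAFF (-0.66, adjusted p = 0.0307, lost in 7 of 12 such fits) were lower in the uL3Δ-labelled cells, beside 3.23% of all tested genes.

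Of 44 other immediate early genes 43 were tested. With vehicle 27 were higher and 8 lower in the uL3Δ-labelled cells (median log2 fold change 1.07, beside 35.1% and 36.2% of all tested genes), and with Act D 27 were higher and 11 lower (0.59, beside 35.1% and 35.3%). DUSP1, a phosphatase that inactivates MAP kinases, was at 111 against 8.69 CPM with vehicle (3.68, adjusted p = 1.11e-13) and 109 against 11.3 CPM with Act D (3.27, adjusted p = 5.44e-13). The prostaglandin synthase gene PTGS2 was at 19.0 against 0.408 CPM with vehicle (5.51, adjusted p = 9.93e-14) and differed by 4.22 with Act D, CSRNP1 differed by 3.13 with vehicle, and HBEGF, an EGF receptor ligand, by 1.97 with Act D. In the other direction MYC was at 15.3 against 385 CPM with vehicle (-4.66, adjusted p = 5.56e-17) and at 16.3 against 320.1 CPM with Act D. TRIB1 (-1.61 and -1.65) and the orphan nuclear receptor gene NR4A2 (-2.68 and -3.02) were also lower in both comparisons.

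Act D raised 26 of the 43 in HCT 116p53-/- cells, beside 7.59% of all tested genes called higher, and lowered MYC (-0.27, adjusted p = 0.0192). The median was 0.55. IER5 went from 35.2 to 78.1 CPM (log2 fold change 1.15, SE 0.09, adjusted p = 2.6e-07), the antiproliferative gene BTG2 from 15.3 to 57.7 CPM (1.91, SE 0.17, adjusted p = 6.97e-07) and the kinase gene PLK2 from 112 to 243 CPM (1.12, SE 0.10, adjusted p = 1.05e-06). The number of calls in either direction was 27, fell to 26 after subtraction of the uL3Δ share and to 20 under scaling by library size, and lay between 20 and 28 when 1 library was left out. MYC lost its call without replicate 2 of the vehicle group or without any 1 of the Act D replicates (adjusted p up to 0.0917).

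In the uL3Δ-labelled cells Act D raised 5 of the 43 and lowered 4 (median 0.05), beside 3.51% and 8.4% of all tested genes. HBEGF rose from 56.2 to 87.5 CPM (0.64, adjusted p = 0.000455), the kinase gene SGK1 from 20.3 to 32.4 CPM (0.69, adjusted p = 0.00326) and NR4A3 from 0.882 to 2.68 CPM (1.67, adjusted p = 0.00316). CSRNP1 fell from 104 to 75.6 CPM (-0.46, adjusted p = 0.00302), the cytokine gene LIF from 62.2 to 46.1 CPM (-0.43, adjusted p = 0.0067) and TNFAIP3, a feedback inhibitor of NF-kB, from 55.4 to 40.7 CPM (-0.45, adjusted p = 0.0258). TNFAIP3 lost its call without replicate 1 of the vehicle group or replicate 1 or 3 of the Act D group (adjusted p up to 0.079). The response differed between the lines for 18 of the 43, each with a lower log2 fold change in the uL3Δ-labelled cells, where 3.23% of all tested genes did so (median -0.45). CSRNP1 had the smallest p (-1.48, SE 0.14, adjusted p = 1.62e-05), followed by the growth arrest gene GADD45A (-1.20, SE 0.15, adjusted p = 0.000145) and IER5 (-0.93, SE 0.13, adjusted p = 0.000478).

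**Figure D4:**
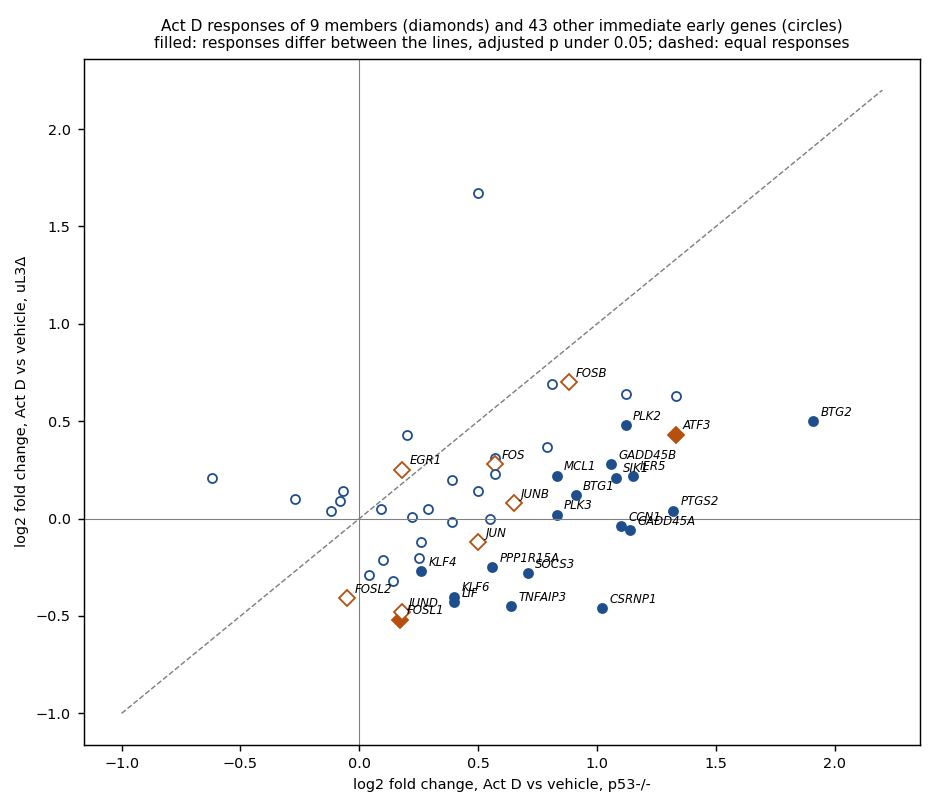
Log2 fold change with Act D in HCT 116p53-/- cells (horizontal) against that in the uL3Δ-labelled cells (vertical) for the 9 members (diamonds) and the 43 other immediate early genes tested (circles); the dashed line marks equal responses, and filled symbols have an interaction with an adjusted p under 0.05. The filled symbols, FOSL1, ATF3 and 18 others, all lie below the line.

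Among 27 upstream activators and regulators, all tested, 8 were higher and 11 lower in the vehicle-treated uL3Δ-labelled cells (median -0.03), shares near the 35.1% and 36.2% of all tested genes, and 6 were higher and 15 lower with Act D (-0.32), beside 35.1% and 35.3%. NAB1 and NAB2, corepressors that bind EGR1, were higher with vehicle (1.55, adjusted p = 2.01e-11, and 0.93, adjusted p = 4.21e-08) and with Act D (1.32 and 0.56), as was MAP2K1, the kinase MEK1 that activates ERK (134 against 48.5 CPM, 1.47, adjusted p = 7.52e-11 with vehicle, 1.04 with Act D). MAP2K4, a kinase that activates JNK, was lower (32.7 against 100.1 CPM, -1.61, adjusted p = 1.42e-11 with vehicle, -1.78 with Act D), as were the SRF coactivator MRTFB (-2.28 and -1.89), RPS6KA5 with vehicle (-1.26) and the coactivator CREBBP with Act D (-1.35).

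Act D raised 2 of the 27 in HCT 116p53-/- cells, a share near the 7.59% of all tested genes. These were SRF (56.6 to 78.8 CPM, 0.48, adjusted p = 0.00146) and MAP3K1 (0.42, adjusted p = 0.0101, not called under scaling by library size). It lowered 6, beside 11.1% of all tested genes, among them MRTFB (-0.60), MRTFA (-0.63) and CREBBP (-0.46). CREBBP lost its call without replicate 3 of the vehicle group (-0.35, adjusted p = 0.0651) or replicate 1 of the Act D group, and the count of calls went from 8 to 5 without replicate 1 of the vehicle group and to 4 without replicate 1 of the Act D group. In the uL3Δ-labelled cells 11 of the 27 fell, led by CREBBP (52.3 to 26.8 CPM, -0.95, adjusted p = 9.8e-05), MRTFA (-0.90, adjusted p = 0.000862) and FBXW7, whose product marks JUN for degradation (-0.56, adjusted p = 0.00103), and 8.4% of all tested genes were called lower. The response of SRF was lower in the uL3Δ-labelled cells (-0.70, adjusted p = 0.00426), as were those of FBXW7 (-0.65, adjusted p = 0.00852), MAP2K1 and EP300 (-0.48, adjusted p = 0.0441, lost in 10 of 12 fits that left out a library), beside 3.23% of all tested genes. This count of 4 was 2 without replicate 2 or 3 of vehicle-treated or any replicate of Act D-treated HCT 116p53-/- cells, or without replicate 1 of either uL3Δ-labelled group.

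Of 35 genes known as AP-1 targets 29 were tested, and 22 were higher and 5 lower in the vehicle-treated uL3Δ-labelled cells (median 2.10), beside the 35.1% and 36.2% above. The list shares VIM, FN1 and KRT18 with the lineage markers above. The connexin gene GJA1 was at 85.0 against 0.867 CPM (6.61, adjusted p = 8.87e-16), and VIM differed by 6.67 (adjusted p = 5.1e-15). EZR (-2.43), CD44 (-1.45) and LAMA3 (-0.95), which encode a membrane linker, an adhesion receptor and a laminin chain, were lower. With Act D 21 were higher and 5 lower (median 1.46), beside 35.1% and 35.3% of all tested genes. The log2 fold changes were 6.13 for GJA1, 6.17 for VIM, -2.18 for EZR, -1.33 for CD44 and -1.64 for LAMA3. After subtraction of the uL3Δ share GJA1 and VIM differed by 7.23 and 7.44 with vehicle and by 7.72 and 7.94 with Act D. Subtraction enlarges such differences by construction, and VIM itself meets the rule for the genes that set the share.

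Act D raised 7 of the 29 in HCT 116p53-/- cells (median 0.27, beside 7.59% of all tested genes called higher), among them the urokinase receptor gene PLAUR (24.3 to 38.6 CPM, 0.66, adjusted p = 0.00174). It lowered 4, a share near the 11.1% of all tested genes, among them HMGA2 (183 to 98.3 CPM, -0.90, adjusted p = 1.73e-06), EZR (-0.47) and cyclin D1 (CCND1, -0.60). In the uL3Δ-labelled cells 5 fell (median -0.02), beside 8.4% of all tested genes, led by VEGFA (-0.61, adjusted p = 0.000157), the integrin gene ITGA2 (-0.80, adjusted p = 0.000186) and CCND1 (-0.62, adjusted p = 0.00157). The log2 fold change with Act D was lower in the uL3Δ-labelled cells for 8 of the 29 targets, beside 3.23% of all tested genes, among them VEGFA (-0.69, adjusted p = 0.00312) and PLAUR (-0.96, adjusted p = 0.00412). HMGA2 differed the other way (0.93, adjusted p = 0.000294), as did 3.3% of all tested genes.

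The genes whose profile over the 12 libraries was most like that of a member were found by the smallest root-mean-square difference of centred log2 CPM. For JUN, whose log2 CPM had an SD of 1.63, these were LINC00460 and CHGA (both 0.207) and TGM2 (0.233). For FOS (SD 1.23) they were HSPA1B (0.149), SPRY4 (0.161) and OPN3 (0.198), and for FOSB (SD 1.45) SESN3 (0.202), ANK1 (0.206) and CCN2 (0.228). For FOSL1 (SD 0.42) they were DYRK2 (0.0905), FGFR1 (0.110) and USP47 (0.112), and for FOSL2 (SD 0.89) FUT4 (0.0936), FNIP2 (0.117) and FAM107B (0.119). JUNB was nearest to SMPD1 (0.143), LGMN and LARP6 (both 0.155), JUND to ADM2 (0.182), CEBPD (0.214) and ZNF787 (0.225), EGR1 to NREP (0.146), RCAN3 (0.180) and PHF21A (0.182), and ATF3 to DNAJB4 (0.197), BCL6 (0.209) and PMAIP1 (0.210). The 12 points share the split between the lines. HSPA1B shares reads with a near-identical paralog, and its value is uncertain.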

How the data were processed

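RNA-seq of total RNA (TruSeq, paired-end) from 12 libraries was analysed. Before deposition the authors trimmed the reads, discarded those of ribosomal RNA or PhiX, and quantified Ensembl genes (hg38) with RSEM 1.2.25. The strandedness of the counting is not given in the sources used here. They deposited RSEM expected counts, not normalized, the TPM derived from them and the posterior SD of each count (at most 0.96 count for a member). RSEM divides reads that match several genes between them. The second vehicle replicate of HCT 116p53-/- was deposited per transcript (226788 rows) and was summed by gene.

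Expected counts were rounded, filtered (filterByExpr), scaled by TMM and fitted in 1 model over all 12 libraries with edgeR 4.0.16 (R 4.3.3, quasi-likelihood test, Benjamini-Hochberg over 15692 genes, threshold 0.05). The fit was also run on simulated data that held no widespread difference between the lines, which says nothing about the scaling between them. CPM used the TMM scaling. Members had between 72 and 3618.63 expected counts per library. Names and coordinates came from GENCODE v44 (60261 of 60617 identifiers matched). Alternatives were DESeq2 1.42.0, other scalings and filters, a replicate block, only the compared groups, subtraction of the uL3Δ share and leaving out each library. Named in the text are the members, RPL3, up to 3 called genes with the smallest p per list, comparison and direction, some markers, MAP2K1 and CEBPB (chosen after their values were seen), and the 3 genes nearest to each member; some genes under this rule are not reported here. The members and lists were chosen with earlier results of these data known.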

Additional observations from a re-analysis of the deposited data

Results flagged for a closer look

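The response to Act D differed between the lines for 2 members by the test of the difference itself (edgeR's interaction term). FOSL1 differed by -0.69 on the log2 scale (adjusted p = 0.00185): all 3 Act D libraries were above the vehicle libraries in HCT 116p53-/- cells, where the change was not called, and all 3 were below them in the uL3Δ-labelled cells. ATF3 differed by -0.90 (adjusted p = 0.0181), with all 3 Act D libraries above the vehicle libraries in both lines. The epithelial and mesenchymal marker genes given above also differ between the lines, and their part in this result was not tested.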

How the results depend on the processing

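All 9 members were called in the vehicle comparison of the lines under every alternative run. The number of members called in the uL3Δ-labelled cells' response to Act D went from 3 to 5 with no filter on low counts, and that for the difference of the responses from 2 to 5 with DESeq2 and to 5 with no filter. With 1 library left out, the members called ranged from 9 to 9, 8 to 9, 3 to 5, 3 to 4 and 2 to 4 in the order of the comparisons. Changes of sign were seen where no call was made: FOSL2 in HCT 116p53-/- cells (from -0.08 to 0.00 with 1 library left out, the latter without replicate 3 of the Act D group), JUND there (-0.21 without replicate 2 of the Act D group, 0.37 at most), JUNB in the uL3Δ-labelled cells (-0.02 under library-size scaling) and EGR1 for the difference of the responses (-0.03, -0.12 and -0.13 without replicate 3 of the HCT 116p53-/- vehicle group or replicate 1 of either uL3Δ-labelled group, 0.30 at most). The cause was not tested.

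For the lists, whose alternatives were added after seeing the data, the partners called in HCT 116p53-/- cells went from 4 to 2 with the replicate block, and the upstream regulators called for the difference of the responses from 4 to 2 with library-size scaling, upper-quartile scaling and the block. With 1 library left out, partners ranged from 12 to 16, 13 to 15, 2 to 6, 3 to 4 and 2 to 4, other immediate early genes from 35 to 38, 37 to 38, 20 to 28, 7 to 10 and 15 to 20, upstream regulators from 17 to 19, 20 to 22, 4 to 9, 8 to 11 and 2 to 4, and targets from 27 to 28, 26 to 27, 9 to 11, 5 to 6 and 6 to 9. Library-size scaling moved the split of calls for other immediate early genes in the uL3Δ-labelled cells' response from 5 higher and 4 lower to 5 and 7, upper-quartile scaling to 8 and 2.

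Libraries with the same replicate number did not deviate together over the tested genes (r from -0.104 to 0.101 over 12 pairs, 1 over 0.1). No label says that a number marks a shared culture, and these values do not settle it. The numbers are therefore used here only to name libraries. They are those of the sample titles, since the descriptions number the Act D-treated uL3Δ-labelled libraries differently, and the block and each left-out library of that group are named by the titles. With the replicate block the members called were 9, 9, 4, 3 and 2, as without it. The coefficient of variation within a group of 3 libraries was between 1.77% and 41.6% over the members, highest for JUND in Act D-treated HCT 116p53-/- cells.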
